A study of Dendrobaena veneta with 18 samples.

Results

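Gene expression in the cerebral ganglion was compared with that in the gut of adult Dendrobaena veneta, a composting earthworm, after 28 days in topsoil spiked with 10 mg/kg carbamazepine, called high dose. The comparison used all 6 libraries of that dose, 3 from the ganglion and 3 from the gut, of 17 libraries with values in the series. It covered 53931 assembled genes, called features, of 243619 in the deposited tables, namely those with 10 or more counts in at least 2 of the 6 libraries. All worms were kept in the dark at 15 °C without added food. The other groups, used here only to see how far the tissue difference held elsewhere, were low dose worms (0.6 mg/kg carbamazepine, 3 ganglion and 3 gut libraries) and control worms in soil spiked with methanol, which was left to evaporate (3 ganglion and 2 gut libraries). One further control gut sample of the labels was not analysed here, since no column carries its name. The labels do not say whether a library is 1 animal or a pool, and p-values therefore reflect only how far these libraries vary.

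The cerebral ganglion of an annelid is the dorsal nerve mass at the front of the body, joined to the ventral nerve cord, and holds neurons, neurosecretory cells and glia. The earthworm gut is a tube of secretory and absorptive epithelium that releases digestive enzymes into swallowed soil. Carbamazepine is a human anticonvulsant that blocks voltage-gated sodium channels. Feature identifiers follow the naming of Trinity, a program that assembles transcripts from reads without a reference genome, and the files pair them with no gene name, sequence or position. The tissue labels could therefore not be checked against marker genes, and features are described by level, length, tissue pattern and behaviour in the other worms. In whole tissue, fewer cells of a type and less RNA per cell cannot be told apart.

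The 6 libraries held 12967310 to 18285270 counts, and the features tested held 97.9% to 99.1% of them. High dose gut 1 and 3 resembled 2 libraries of 1 worm. Only 9 features had at least 50 counts in one and 0 in the other, against 327 and 537 for their pairs with gut 2 and 291 to 867 for pairs of ganglia. Of 10784 features at 10 CPM (counts scaled to a common library total) or more in gut, 44 (0.408%) differed over 4-fold between gut 1 and 3. Between gut 2 and the mean of that pair 692 of 10629 did (6.51%), and between pairs of ganglia 392 to 799 of 10073 (3.89% to 7.93%). Gut 1 and 3 were still no repeat of 1 library, since their counts differed far beyond counting noise for abundant features: at 1000 to 10000 counts the chi-square averaged 113, where counting noise alone gives about 1.

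Some ganglion libraries also matched gut libraries in which features were present. Over 340 features present in some libraries and absent from others in both tissues, presence in ganglion 1 matched gut 2 (correlation across features 0.912), and presence in ganglion 2 matched gut 1 (0.839) and gut 3 (0.959). Ganglion 3 matched no gut library, with correlations of -0.042 to 0.027. Presence was opposed between ganglion 1 and 2 (-0.902) and between gut 2 and gut 1 (-0.880) or gut 3 (-0.993). The matches are therefore tied to one another and are not separate findings. The replicate numbers of the labels do not follow these matches, and the labels do not say which libraries share a worm. Because gut 1 and 3 resembled 1 worm, counts of calls and folds are given with the 6 libraries separate and with gut 1 and 3 averaged to 1 sample. Both fits treat ganglion and gut libraries as unrelated, and no fit paired them by these matches.

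The ganglion and the gut differed in 18182 of the 53931 features, which is 33.7% of those tested. The ganglion level was the higher in 9766 (18.1%) and the gut level in 8416 (15.6%). With gut 1 and 3 averaged, 9073 features differed (16.8%), with the ganglion the higher in 4905 (9.09%) and the gut in 4168 (7.73%), and 9054 of them were called the same way in both fits. DESeq2 called 27395 of 53596 features in the 6 libraries (51.1%). The calls came from edgeR's quasi-likelihood test (two-sided, Benjamini-Hochberg adjusted p under 0.05). The biological coefficient of variation was 67.4% with 6 libraries and 72.9% with 5 samples, with 4 and 3 residual degrees of freedom. Which tissue held more calls rested on ganglion 2, since without it the ganglion was the higher in 9802 features and the gut in 10459.

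Many called features were detected mainly in one tissue, and these carried most of the large folds. Among features higher in the ganglion, 7784 (79.7% of them, 14.4% of all tested) differed at least 4-fold and 2682 (27.5%) at least 64-fold, with a median log2 fold of 4.02. Among those higher in the gut, 6809 (80.9% of them, 12.6% of all tested) differed at least 4-fold and 3142 (37.3%) at least 64-fold, with a median of -4.35. Of the features at least 4-fold apart, 3679 for the ganglion and 3088 for the gut had 10 or more counts in every library of that tissue and in none of the other, and a further 1297 and 1117 reached 10 counts in 2 libraries of that tissue only. Such features entered the test through the tissue where they are high, so a large fold is built into their choice. Of 4066 features that reached 10 counts in 2 ganglia only, 31.9% were called with 6 libraries and 1.70% with the gut pair averaged. Of 3164 that did so in 2 guts only, 35.3% and 2.05% were called. Among features with 10 or more counts in all 6 libraries, 1558 of 3474 calls for the ganglion and 1280 of 2825 for the gut were at least 4-fold. The median over all features tested was -0.01. The smallest difference called (absolute log2 fold) was 0.74 for the ganglion and 0.75 for the gut. With the gut pair averaged 4552 features (8.44%) were at least 4-fold higher in the ganglion and 3914 (7.26%) in the gut. In features called in both fits the median log2 folds were 4.82 and -6.06.

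**Figure D1:**
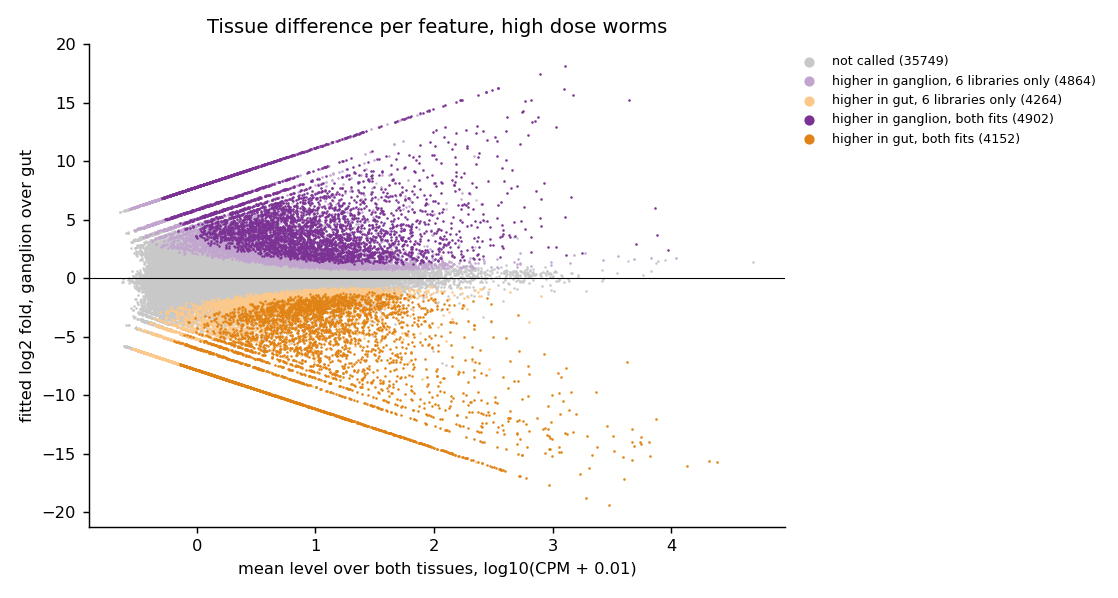
Each point is 1 of the 53931 features tested; the x axis gives the mean level over both tissues as log10(CPM + 0.01) and the y axis the fitted log2 fold of ganglion over gut in high dose worms, with colours for the call in the fit of 6 libraries alone or in both fits. Called features spread to both sides at every level, and the straight outer lines are features at or near 0 counts in a tissue, whose fitted fold depends on the prior count.

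The share of features called grew with level. It was 21.6% of 13343 features under 1 CPM, 33.7% of 29361 from 1 to 10 CPM, 46.8% of 10202 from 10 to 100 CPM, 58.5% of 932 from 100 to 1000 CPM and 68.8% of 93 at 1000 CPM or more. With the gut pair averaged these shares were 4.49%, 17.5%, 28.0%, 46.4% and 60.2%. At the top the balance leaned to the gut, since of the 93 most abundant features 22 were called for the ganglion and 42 for the gut. Counting error is larger for weak features, and its part in these shares was not tested.

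Features found in both tissues carried most of the ganglion's RNA and about as much of the gut's as the remaining features did. With 10 or more counts in all 6 libraries, 22171 features (41.1%) were common. They held 84.1%, 81.1% and 82.1% of the counts in ganglion 1, 2 and 3, and 53.4%, 44.8% and 61.8% in gut 1, 2 and 3. The 3 ganglia lay above the 3 guts without overlap. Among the common features 28.4% were called, 3474 for the ganglion and 2825 for the gut, and 12.3% were called with the gut pair averaged.

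Much of the remaining gut RNA lay in features that some ganglia also held at a low level. Of features with 10 or more counts in all guts, 5874 reached that level in 1 or 2 ganglia. They took 26.5%, 31.2% and 20.9% of the counts in gut 1, 2 and 3, and 0.484%, 1.48% and 0.644% in ganglion 1, 2 and 3, highest in ganglion 2. A further 3627 features reached 10 counts in all guts and in no ganglion, with 17.6% ± 3.90 of the gut counts (SD, n = 3). The counterpart for the ganglion was 4358 features, which took 8.14% ± 0.409 of the ganglion counts and 0.0569% ± 0.00376 of the gut counts (SD, n = 3 each). These sets were cut from the same counts, so their shares in high dose worms are a description.

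The share of the common features was also taken in libraries that had no part in choosing them. The common features took 85.3% ± 5.61 of the counts in control ganglia (n = 3) and 51.7% ± 4.22 in control guts (n = 2). At the low dose they took 76.4% ± 2.68 in ganglia (n = 3) and 65.6% ± 0.658 in guts (n = 2). Low dose gut 1 and 3 count as 1 sample in all means here, since their counts differed little beyond counting noise (mean chi-square 2.85 at 1000 to 10000 counts, against 218 to 220 for their pairs with gut 2). In each dose group all ganglia stood above all guts in this share. Features at 10 counts in all high dose guts and no ganglion took 19.5% ± 2.39 in control guts and 12.2% ± 0.524 in low dose guts (n = 2 each). In low dose ganglion 2 they took 0.530%, against 0.0403% ± 0.00941 in high dose ganglia (n = 3). The ganglion counterpart took 9.96%, 6.66% and 1.91% in control ganglion 1, 2 and 3, and 8.54% ± 2.73 in low dose ganglia (n = 3).

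Some features were seen in a single tissue. At 10 or more counts in every ganglion and 0 in every gut there were 965 features (1.79% of those tested), and at 10 or more in every gut and 0 in every ganglion 1368 (2.54%). The ganglion-only features had a median level of 2.49 CPM in ganglia and a maximum of 2553 CPM, and the gut-only features a median of 5.77 CPM in guts and a maximum of 5926 CPM. Averaging the gut pair and rounding gave 1169 ganglion-only and 1533 gut-only features. A lone count in gut 1 or 3 then rounds to 0, so the 1169 include features not at 0 in every gut. For the 1533, gut 1 and 3 had to reach 10 counts only on average. Leaving out a library can only raise the numbers, since the rule then asks less, and how far they rose depended on the library. Ganglion-only features rose to between 1171 and 1701, with 1701 without ganglion 1 and 1606 without gut 2. Gut-only features rose to between 1492 and 2439, with 2439 without gut 2. At least 100 counts in every library of their tissue were reached by 95 ganglion-only and 365 gut-only features. In control worms 735 of the 965 ganglion-only features were at 0 in both guts, and 1122 of the 1368 gut-only features were at 0 in all ganglia. In low dose worms 578 ganglion-only and 901 gut-only features were at 0 in the other tissue. Where a ganglion-only feature had counts in a gut, they reached at most 75 in a control gut and 49 in a low dose gut. For gut-only features in ganglia the maxima were 92 and 474. A 0 in the other tissue did not mean that the feature was found in its own. Of the 965 ganglion-only features 397 had 10 or more counts in every control ganglion and 411 in every low dose ganglion, and of the 1368 gut-only features 1007 did in every control gut and 1023 in every low dose gut. In both other dose groups at once, 109 ganglion-only and 500 gut-only features had 10 or more counts in every library of their own tissue and 0 in the other. For these counts in the other dose groups the share over all features tested was not obtained. Most of the features are weak, and control worms had 2 guts but 3 ganglia, so the counts are a description.

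The feature of smallest p on the ganglion side was TRINITY_DN84155_c1_g1, whose effective length was 2203 bases. It stood at 534, 648 and 618 CPM in high dose ganglion 1, 2 and 3, and at 2.02, 1.84 and 2.03 CPM in gut 1, 2 and 3. The ganglia agreed closely and lay far above the guts. The log2 fold was 8.28 (SE 0.35, adjusted p = 0.000686 by edgeR), and 8.31 (SE 0.50, adjusted p = 0.00573) with the gut pair averaged. In control worms it stood at 736, 500 and 244 CPM in the ganglia and 2.03 and 0.392 CPM in the guts. In low dose worms it stood at 262, 142 and 394 CPM in the ganglia and 2.47, 0.715 and 2.69 CPM in the guts.

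The most abundant feature called on the ganglion side in both fits was TRINITY_DN106077_c3_g3, of 578 bases. It stood at 20711, 14352 and 15087 CPM in high dose ganglion 1, 2 and 3, and at 2534, 3354 and 3497 CPM in gut 1, 2 and 3. It was thus abundant in both tissues, and the ganglia did not overlap the guts. The log2 fold was 2.46 (SE 0.46, adjusted p = 0.00913 by edgeR) and 2.41 (SE 0.57, adjusted p = 0.0402) with the gut pair averaged. All 3 features of its assembly component were tested and 2 were higher in the ganglion, so reads may be split between near-identical members. The ganglia stood above the guts at the other doses too, with means of 14716 ± 3409 and 1411 ± 44.1 CPM in control worms (SD, n = 3 and 2) and of 6144 ± 2447 and 1987 ± 151 CPM in low dose worms (n = 3 and 2).

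On the gut side the smallest p belonged to TRINITY_DN85128_c0_g1, of 1190 bases. It had 2, 1 and 1 counts in high dose ganglion 1, 2 and 3, and 3204, 2805 and 4451 counts in gut 1, 2 and 3. It was close to absent from the ganglion and even across the guts. Over the summed counts, divided by summed library size, the gut level was 2370 times that of the ganglion (95% exact Clopper-Pearson interval 925 to 8700, which covers counting error only). The log2 fold was -11.28 (SE 0.48, adjusted p = 0.000686 by edgeR), and -11.24 (SE 0.54, adjusted p = 0.00573) with the gut pair averaged. Control worms had 6 counts over 3 ganglia and 5528 over 2 guts. Low dose worms had 4 counts over 3 ganglia and 12611 over 3 guts.

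TRINITY_DN78240_c1_g1, of 542 bases, was the most abundant feature on the gut side. It had 4, 0 and 34 counts in high dose ganglion 1, 2 and 3, and 594980, 937408 and 411309 counts in gut 1, 2 and 3. Its mean was 77948 ± 20919 FPKM in gut and 1.70 ± 2.50 FPKM in ganglion (SD, n = 3 each; FPKM is counts scaled to feature length and library total), the highest mean FPKM of any feature tested in gut. It was the leading feature of gut 1, 2 and 3, at 4.59%, 5.13% and 2.97% of their counts. The ratio of summed counts divided by summed library size, gut over ganglion, was 46360 (95% exact interval 33776 to 65512, counting error only). The log2 fold was -15.72 (SE 2.05, adjusted p = 0.0028 by edgeR), and -15.88 (SE 2.19, adjusted p = 0.0109) with the gut pair averaged. Both the ratio and the fold rest on ganglion 3, which held 34 of the 38 ganglion counts, and without it the log2 fold was -18.32. Of the 3 tested members of its component all 3 were higher in gut. In gut libraries it stood at 31858 and 55004 CPM in control worms and 15588, 20458 and 15471 CPM in low dose worms.

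**Figure D2:**
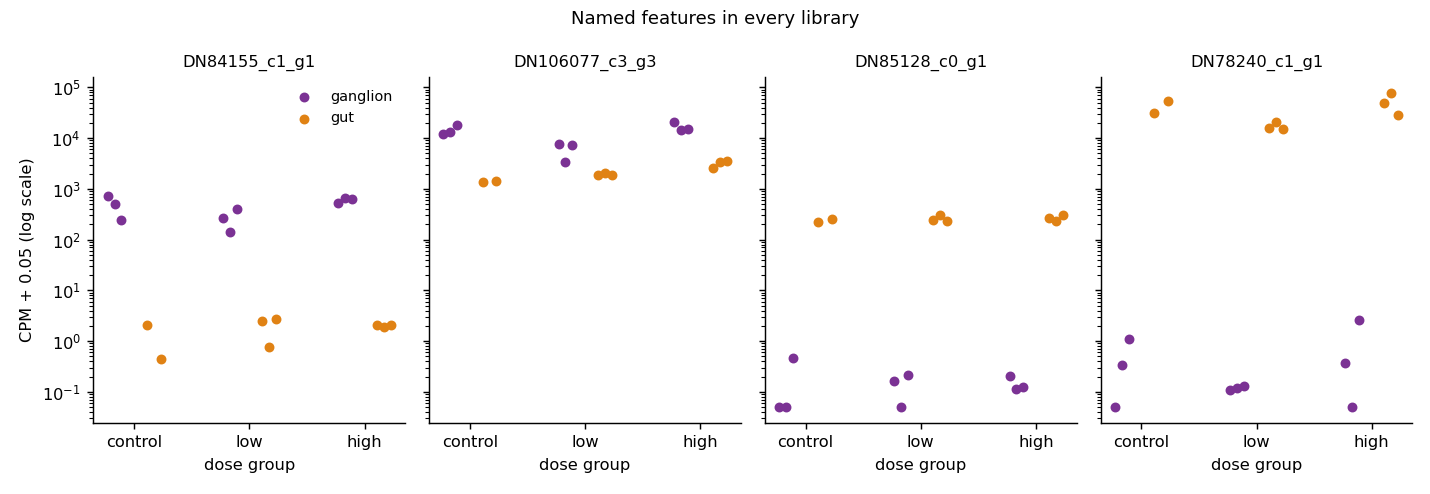
The y axis gives CPM + 0.05 on a log scale in each of the 17 libraries for the 4 named features, by dose group on the x axis, with ganglion libraries left of gut libraries. In every dose group the ganglion and gut points of each feature stand apart, by the most for TRINITY_DN78240_c1_g1 and the least for TRINITY_DN106077_c3_g3. The features were chosen for their difference at the high dose.

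The most abundant features of the tissues were largely different ones. Ranked by mean FPKM, the top 10 of ganglion and gut shared 1 feature, the top 100 shared 26 (26.0% of each list) and the top 1000 shared 391 (39.1%). Of the ganglion's top 100, 54 were called higher in the ganglion, 0 higher in the gut and 46 not called. Of the gut's top 100, 73 were higher in the gut, 7 higher in the ganglion and 20 not called. With the gut pair averaged these were 38 higher in the ganglion for the ganglion's list, and 69 higher in the gut and 2 in the ganglion for the gut's list.

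Among the top 100, the gut's features were mostly near 0 in the ganglion. The ganglion's top 100 had a median level of 2644 FPKM in ganglion and 930 FPKM in gut, and the gut's top 100 a median of 0.827 FPKM in ganglion and 4273 FPKM in gut. The contrast was smaller in the top 1000, where the ganglion's list had medians of 222 FPKM in ganglion and 59.9 FPKM in gut, and the gut's list 26.5 FPKM in ganglion and 226 FPKM in gut. The ganglion's top 100 made up 47.3% of the summed FPKM in ganglia and 11.2% in guts. The gut's top 100 made up 52.8% in guts and 24% in ganglia, and these lists share 26 features. Median lengths in the top 100 were 437 bases for the ganglion and 374 for the gut, against 1054 over all features tested. FPKM divides by length, so a ranking by it favours short features. Features at 10 CPM or more had a median of 1928 bases.

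Counts were concentrated in few features in both tissues. The 100 most abundant features of each library held 43.0%, 34.2% and 37.3% of the counts in ganglion 1, 2 and 3, and 41.5%, 53.6% and 35.5% in gut 1, 2 and 3. The ranges overlapped, with a mean of 38.2% ± 4.49 in ganglion and 43.5% ± 9.24 in gut (SD, n = 3 each). The difference was -5.33 percentage points (exact permutation test, two-sided, p = 0.6, where 0.1 is the smallest p that 3 against 3 libraries allow), with the gut pair averaged it was -7.85 (exact permutation p = 0.4), and without gut 2 it was -0.28. The first feature alone took 9.39%, 6.85% and 6.24% in the ganglia and 4.59%, 5.13% and 2.97% in the guts, without overlap (mean difference 3.27 points, exact permutation p = 0.1, two-sided, the smallest possible; exact permutation p = 0.2 with the gut pair averaged). It took 198, 477 and 316 features to reach 50% of the counts in ganglion 1, 2 and 3, and 240, 72 and 406 in gut 1, 2 and 3.

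**Figure D3:**
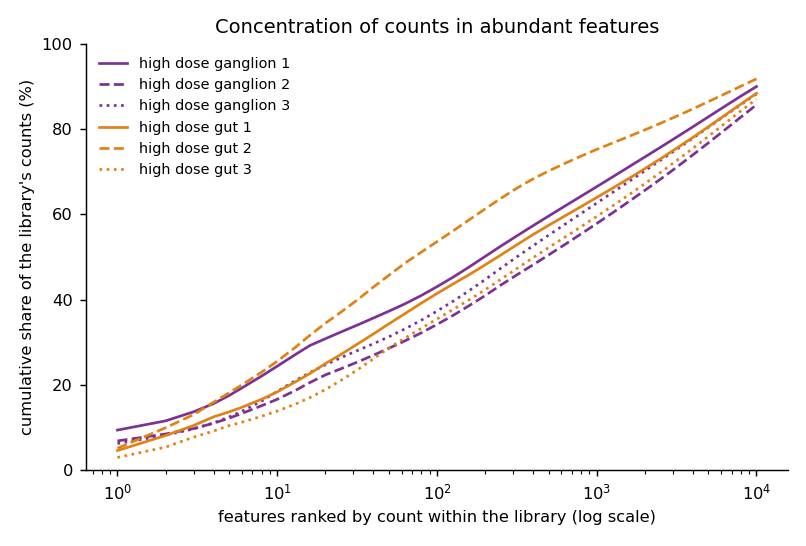
For each of the 6 high dose libraries the y axis gives the cumulative share of counts in percent against the number of features, ranked by count within the library on a log scale. The curves of ganglion and gut run among each other, and gut 2 lies highest from 4 features on, at 53.6% with 100 features.

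The length of called features showed no stable order between the tissues. The effective length, obtained for 53922 of 53931 features from the deposited counts and FPKM, had a median of 1054 bases over all features, 1114 for those higher in the ganglion, 1209 for those higher in the gut and 1001 for those not called. Averaging the gut pair gave medians of 1228 for the ganglion and 1225 for the gut, and the ganglion's median was also the higher without ganglion 1 (1180 and 1140), ganglion 3 (1232 and 1149), gut 1 (1241 and 1221) or gut 2 (1144 and 1059). Among the 11227 features at 10 CPM or more the median was 1589 bases for the 2720 features higher in the ganglion, 1775 for the 2668 higher in the gut, and 2216 for the 5839 not called. At that level 26.9% of features under 500 bases were called for the ganglion and 34.8% for the gut, while over 4000 bases 15.7% and 21.1% were. With the gut pair averaged the same shares were 17% and 29.4% under 500 bases, and 8.41% and 9.17% over 4000 bases.

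Features of 1 assembly component share sequence and may be variants or close relatives of a gene. Of 40115 components, 10378 held at least 2 tested features, of which 4942 had no call, 3408 had 1 called feature and 2028 had at least 2. In 839 of the 2028 all calls were higher in the ganglion, in 868 all were higher in the gut, and in 321 (15.8%) calls went both ways. With the gut pair averaged 84 of 820 such components (10.2%) had calls both ways. Because the counts of close relatives depend on how reads were assigned between them, single calls within a component are uncertain.

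The tissue difference found at the high dose was met again in worms of the other groups, whose libraries the calls did not use. Of the 9766 features higher in the ganglion, 7673 (78.6%) had all 3 control ganglia above both control guts, where 25.1% of all features tested did, and 4 had the reverse. Of the 8416 features higher in the gut, 7138 (84.8%) had both control guts above all control ganglia, against 26.6% of all features, and 4 had the reverse. In low dose worms, with gut 1 and 3 as 1 sample, the counts were 7591 (77.7%) and 6354 (75.5%), against 27.6% and 28.5% of all features, and 39 and 17 had the reverse. For features called in both fits the shares were 87.8% and 92.0% in control worms and 86.4% and 80.4% in low dose worms. Many calls, 3683 for the ganglion and 3091 for the gut, reached 10 counts in all high dose libraries of that tissue and in none of the other. A further 1297 and 1117 reached it in 2 libraries of that tissue only. These entered the test through the tissue where they are high, and shares without them were not obtained.

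Fitted folds for the same features were smaller at the low dose. For features higher in the high dose ganglion the median log2 fold of ganglion over gut was 3.84 in control, 2.82 in low dose and 4.02 in high dose worms, from 1 fit of all groups. For features higher in the high dose gut it was -3.94, -2.65 and -4.38. For features called in both fits the medians were 4.79, 3.47 and 4.82 on the ganglion side, and -6.15, -4.03 and -6.07 on the side of the gut. The features were chosen for their difference at the high dose, and these medians are a description. Of the ganglion's features 31 (0.317%) and of the gut's 136 (1.62%) had 0 counts in all control libraries of both tissues. In all low dose libraries 38 (0.389%) and 131 (1.56%) had 0 counts. The share over all features tested was not obtained.

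**Figure D4:**
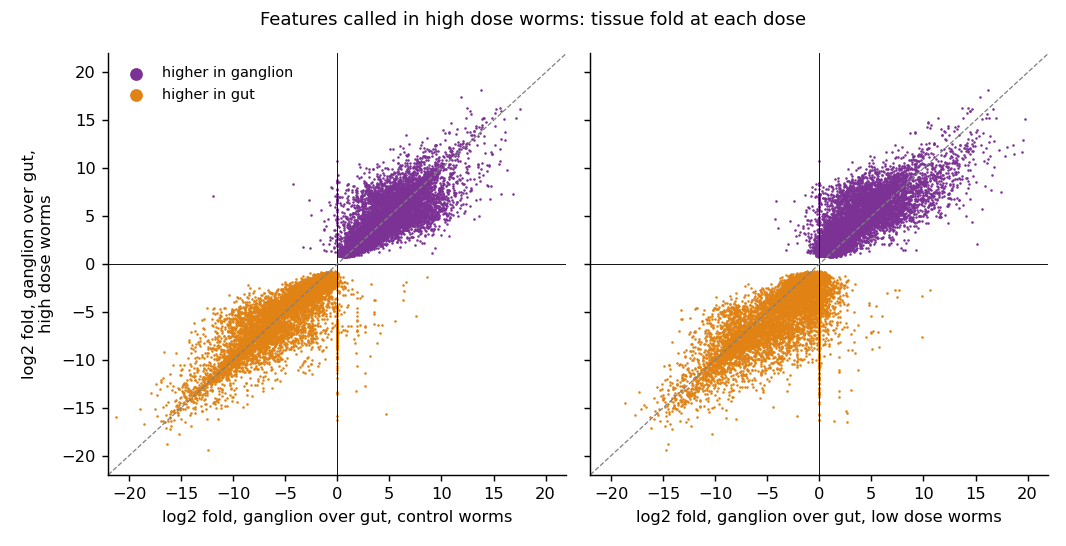
Each point is 1 of the 18182 features called in high dose worms; the y axis gives the log2 fold of ganglion over gut in high dose worms and the x axis the same in control worms (left panel) or low dose worms (right panel), with a dashed line where both are equal. Nearly all points lie in the quadrants of equal sign, and points on the vertical line at 0 include features with no counts in that group.

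By share of counts the called features also set the tissues apart in control and low dose worms. In high dose worms, where the features were chosen, that gap is built in. Features higher in the high dose ganglion took 40.7% ± 5.49 (SD, n = 3), 36.2% ± 5.69 (n = 3) and 44.0% ± 1.88 (n = 3) of the counts in control, low dose and high dose ganglia. In control, low dose and high dose guts they took 5.53% ± 0.658 (n = 2), 7.62% ± 0.31 (n = 2) and 5.94% ± 1.07 (n = 3). Features higher in the high dose gut took 2.98% ± 0.299, 4.40% ± 1.62 and 2.66% ± 0.814 in the ganglia of these groups (n = 3 each), and 56.6% ± 3.90 (n = 2), 42.3% ± 0.687 (n = 2) and 56.2% ± 7.11 (n = 3) in the guts. With the features called in both fits, those of the ganglion took 29.3% ± 1.69 of the counts in high dose ganglia and 2.01% ± 0.383 in high dose guts, and those of the gut 0.94% ± 0.216 and 50.4% ± 9.22 (SD, n = 3 each). In the fit of 6 libraries, the features higher in the gut took from 48.9% in high dose gut 3 to 63.1% in gut 2. Among the high dose ganglia, ganglion 2 held the most of them at 3.55%.

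**Figure D5:**
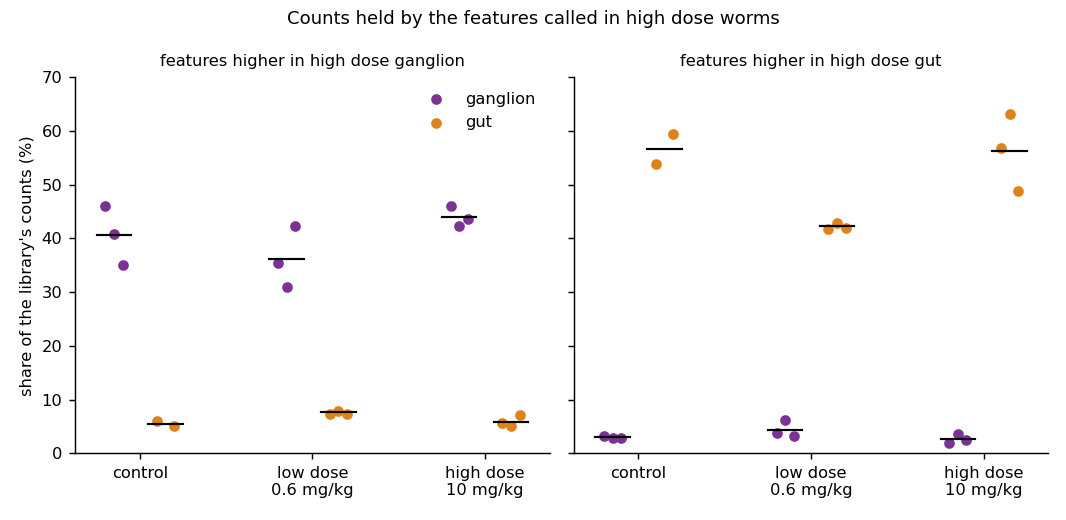
The y axis gives the percent of each library's counts held by the features called higher in high dose ganglion (left panel) or higher in high dose gut (right panel), with 1 point a library, ganglion left of gut, and a line at the group mean (low dose gut 1 and 3 as 1 sample). The tissues stand apart in every dose group, at 30.9% or more against 7.84% or less in the left panel. In the right panel they stand at 6.23% or less against 41.8% or more. The features were chosen by this contrast at the high dose, where the gap is thus built in.

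Few features passed the test of a tissue difference that itself differed between high dose and other worms, and how many depended on the tool. The difference of the ganglion to gut fold between high dose and control worms passed edgeR's test (Benjamini-Hochberg) for 1 of 71678 features (0.0014%), and for 0 with the high dose gut pair averaged. At an unadjusted p under 0.05 there were 1656 and 1304 features, where 5% of those tested is 3584 and 3534, and DESeq2 called 90 of 47131 (0.191%). Against low dose worms it also passed for 1 feature, without averaging (0.0014%) and with it (0.00142%), at 4126 and 2979 features of unadjusted p under 0.05, and DESeq2 called 383 of 41708 (0.918%). With so few libraries a p above the threshold does not show equal tissue differences.

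Against control the feature was TRINITY_DN86038_c0_g2, of 134 bases, 1 of 10 features of its component. It had 3, 26 and 24 counts in high dose ganglion 1, 2 and 3 and 0 in all high dose guts, at least 6.5-fold higher in the ganglion by a floor of 3 counts per library. In control worms it had 0, 7 and 6 counts in the ganglia and 10300 and 18027 in the guts, a ratio of gut over ganglion, divided by summed library size, of 3392 (95% exact interval 1983 to 6371, counting error only). Low dose worms had 36, 40 and 28 counts in the ganglia and 10, 17 and 9 in the guts. The control guts thus stood apart from every other group. The adjusted p was 0.0121 with gut 1 and 3 separate and 0.0669 with them averaged, by edgeR.

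Against the low dose the feature was TRINITY_DN88869_c4_g1, of 3104 bases, 1 of 5 features of its component. At the high dose 3 of these were tested for the tissue difference, and 1 other member was called higher in the gut. TRINITY_DN88869_c4_g1 itself stood at 6.44 ± 1.11 CPM in high dose ganglia and 3.11 ± 0.919 CPM in high dose guts (SD, n = 3 each). That difference did not pass the test (log2 fold 1.09, SE 0.40, adjusted p = 0.0708 by edgeR). In low dose worms it stood at 7.50 ± 1.45 CPM in ganglia (n = 3) and 108 ± 2.16 CPM in guts (n = 2). In control worms it stood at 5.51 ± 0.147 CPM in ganglia (n = 3) and 3.78 ± 0.079 CPM in guts (n = 2), so the low dose guts stood apart from every other group. The difference of the log2 folds was 4.84 (SE 0.45, adjusted p = 0.00323 by edgeR), and 4.95 (adjusted p = 0.0152) with the high dose gut pair averaged.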

How the data were processed

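Poly(A) RNA was sequenced on an Illumina instrument by what the labels call de novo RNA sequencing. CASAVA and DESeq2 appear in the submitters' processing notes without a role; the assembler's settings, counting program and versions are also not given in the sources used here. Of the 2 tables the authors deposited, one holds expected counts (estimated and unscaled; 98.1% of the values used were whole numbers within 1e-06) per assembled gene. The other table the authors deposited holds FPKM values.

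Expected counts were rounded and tested with edgeR 4.0.16 (quasi-likelihood, TMM scaling, limma 3.58.1, R 4.3.3) in the 6 high dose libraries, with 1 coefficient per tissue, and differences between dose groups in 1 fit of all groups. DESeq2 1.42.0 and limma on log2(FPKM + 1) or log2(FPKM + 0.1) were alternatives. CPM values of named features are relative to TMM-scaled totals over 17 libraries. The SE is the log2 fold over the square root of F. Effective length is the median over libraries of counts over library total and FPKM, in bases, where counts reached 10 and FPKM 0.5; 99.0% of single values lay within 5% of it. In each direction the features named are that of smallest p and the most abundant one called in both fits, plus those differing between doses where 5 or fewer did. The scripts were tested on simulated data. The labels give no batch. The members, tests and rules were chosen with earlier results of these data known.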

Additional observations from a re-analysis of the deposited data

Results flagged for a closer look

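The tissue fold of TRINITY_DN86038_c0_g2 differed between high dose and control worms by edgeR's interaction test, with a difference of log2 folds of 19.02 (adjusted p = 0.0121). That fitted value depends on the prior count, since all high dose guts were at 0, and is no bound. The adjusted p was between 0.0514 and 0.121 in 6 of the 11 fits that leave out a library (high dose gut 1, 2 or 3, high dose ganglion 2, control ganglion 2 or 3), and 0.0669 with high dose gut 1 and 3 averaged. The tissue fold of TRINITY_DN88869_c4_g1 differed between high dose and low dose worms, with a difference of log2 folds of 4.84 (adjusted p = 0.00323 by edgeR). It kept its call in all 18 alternatives, with adjusted p up to 0.0483. Groups of 2 or 3 libraries are too small for a check of single outlying libraries.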

How the results depend on the processing

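The number of features that differed between tissues was 18182, and 14593 of these were also at least 4-fold apart. It was 27395 with DESeq2, 9073 with high dose gut 1 and 3 averaged, and 17715 with DESeq2 and that pair averaged. Leaving out 1 library gave 8336 to 20261, with 8336 without gut 1, 9550 without gut 3 and 10873 without ganglion 3. No feature was called in opposite directions by the fit of 6 libraries and any of the 17 other fits. Scaling by library totals without TMM, chosen after seeing the data, moved the median log2 fold of all features from -0.01 to 0.20 and the share of calls higher in the ganglion from 53.7% to 62.0%. With limma on log2(FPKM + 1) and log2(FPKM + 0.1), 18432 and 18760 features were called, 60.3% and 61.3% of them higher in the ganglion. The median log2 folds of all features were then 0.10 and 0.13. With the replicate number of the labels as a block 8701 features were called, and the adjusted p of TRINITY_DN106077_c3_g3 was 0.0858 by edgeR. Deviations of same-numbered libraries correlated across 40588 features at -0.317, -0.294 and 0.038, and those of other pairs at -0.225 to 0.332. These values show no pairing by number, but the labels do not say which libraries share a worm. The other 3 features named for the tissue difference kept their calls in all 17 alternatives, with adjusted p up to 0.0232.

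Features whose tissue fold differed between high dose and control numbered 1, against 90 with DESeq2 and 0 with the high dose pair averaged, and 0 to 1 without 1 library, where a lone remaining control gut is assumed to vary like the other groups. Against low dose worms the number was 1, against 383 with DESeq2, 2 with low dose gut 1 and 3 separate, and 1 without any 1 library. With the replicate block both numbers were 1. The difference in the share of the most abundant features was 0.578 points with 10 features in place of 100, and -9.35 to -0.28 without 1 library. Depth limits the detection of features near 10 counts, and 3325 features tested had 10 to 12 counts in their second highest library, while 4216 with 8 to 10 counts stayed out.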
